A study of Mus musculus with 21 samples.

Results

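Alternative 5' splice site pairs are exons that can end at either of 2 places while joining the same next exon. The pairs were read from the GENCODE vM1 annotation of the mouse genome build mm9: 2 annotated 5' splice sites of a gene joined to the same 3' splice site in different transcripts, with the longer exon spanning the shorter one's site. Rbm10 itself was left out. The annotation held 5246 such pairs in 3499 genes, of 23278 splice events of 3 types in all, the others being 12151 cassette exons and 5881 alternative 3' splice site pairs. For each pair the upstream site ends the shorter exon and the downstream site ends the longer one. The percent spliced in (PSI) is the TPM (transcripts per 1000000 transcripts) of transcripts that use the downstream site, as a percentage of the TPM of transcripts that use either site.

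A 5' splice site marks the exon's end and is first read by the U1 small nuclear ribonucleoprotein (snRNP), whose RNA pairs with the last bases of the exon and the first bases of the intron. Nearly all introns begin with GT, a small share with GC. Where 2 candidate sites lie near each other, U1-associated proteins such as TIA1 and the LUC7-like proteins, and SR and hnRNP proteins, influence which is used. RBM10 is an RNA-binding protein with RNA recognition motifs, encoded on the X chromosome, that is known for regulating alternative splicing, mostly of cassette exons.

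The RNA-seq libraries form KO and WT groups in each of 2 mouse cell types, and the iCLIP libraries form an antibody and a control group. The md MEPA cells derive from the mandibular part of the pharyngeal arches of 11.5 dpc embryos of CD1 females and a male Immortomouse, and were grown at 33 °C with 100 U/ml murine interferon. Their Rbm10 knockout (KO) group held 4 separate CRISPR/Cas9 lines against 3 samples of the wild-type (WT) line. Exon 3 carries the deletion in the lines KO1 and KO2, and exon 9 in KO3 and KO4. The ES KO group held 3 samples of a single male gene trap line, Rbm10Gt(CSI176)Byg, against 3 samples of its parental line E14Tg2a.4, so that the trapped allele and the history of that line cannot be told apart. The iCLIP libraries, in which UV light (254 nm, 400 mJ/cm2) links protein to RNA in living md MEPA cells, were 4 with an antibody against both isoforms of RBM10 and 4 with rabbit IgG. All antibody libraries were sequenced in a lane of their own and the controls in a different one, so antibody and lane cannot be told apart.

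RBM10 libraries held 774816 to 2847066 crosslinks and IgG libraries 103017 to 2214515, while the RNA-seq tables give no depth. Rbm10 mRNA was at 23.2 and 19.7 TPM in KO1 and KO2 and at 7.20 and 3.49 TPM in KO3 and KO4, against 21.4 to 23.7 TPM in WT md samples, so the level does not check the label of the exon 3 lines. In ES cells it was at 3.63 to 4.27 TPM in KO and 32.2 to 33.5 TPM in WT. A mean of 1 TPM or more was reached by 2 of 6 ES markers in md cells and by all 6 in ES cells. It was reached in md cells by 4 of 7 arch mesenchyme markers, while Hand2 was listed at 0 and Dlx5 was near 0. Nothing in the labels says that the samples of the WT md line or of either ES line came from separate cultures, so the spread that the p-values rest on there may be technical only.

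The 30 bases around each site, 10 of the exon and 20 of the intron, are shown for the called Wnk1 pair, for pairs of Lig3, Cenpi, Fam160a2 and Zdhhc3 whose KO and WT samples did not overlap, and for the textbook pairs of Wt1 and the Fgfr genes. The 2 capital letters are the first 2 bases of the intron, and sequences run 5' to 3' on the strand of the gene, from the mm9 genome.
Wnk1 upstream, chr6:119906069-119906098, minus strand: tggaacacagGTaaactcaaatttctgaag
Wnk1 downstream, chr6:119906066-119906095, minus strand: aacacaggtaAActcaaatttctgaagaga
Lig3 upstream, chr11:82594765-82594794, plus strand: agccgagaagGCaggtgaggggcggcgcgg
Lig3 downstream, chr11:82594769-82594798, plus strand: gagaaggcagGTgaggggcggcgcggcgcg
Cenpi upstream, chrX:130842758-130842787, plus strand: ggttctctagGTgagttgcctagcggctgg
Cenpi downstream, chrX:130842827-130842856, plus strand: actcgcggagGTaggattaatcctgaaaag
Fam160a2 upstream, chr7:112533482-112533511, minus strand: tgggcacgagGTgggcctagcagagaggca
Fam160a2 downstream, chr7:112533440-112533469, minus strand: gacatcacggGTatggcctgggttctgggt
Zdhhc3 upstream, chr9:123009361-123009390, minus strand: gacggaccccGTgagtatgtctgggctcat
Zdhhc3 downstream, chr9:123009357-123009386, minus strand: gaccccgtgaGTatgtctgggctcattttg
Wt1 upstream, chr2:105010157-105010186, plus strand: actcatacagGTaaaacaagtgcgtaaact
Wt1 downstream, chr2:105010166-105010195, plus strand: ggtaaaacaaGTgcgtaaacttttcttcac
Fgfr1 upstream, chr8:26677370-26677399, plus strand: gcgcagacagGTaacagaaagtagatgggg
Fgfr1 downstream, chr8:26677376-26677405, plus strand: acaggtaacaGAaagtagatgggggatttg
Fgfr2 upstream, chr7:137339672-137339701, minus strand: gcggagacagGTaacagaaagtagataaag
Fgfr2 downstream, chr7:137339666-137339695, minus strand: acaggtaacaGAaagtagataaagagtttg
In most of these short pairs the upstream window already holds the downstream site a few bases into its intron. The Lig3 upstream intron begins with GC, the Wnk1 downstream intron with AA, and the downstream introns of both Fgfr pairs with GA.

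The sites of a pair were mostly close together. The median distance was 69 nt, the quartiles 22 and 170.8 nt and the largest 3854 nt. A distance of 4 nt was the most common, in 206 pairs, followed by 9 nt in 97 and 6 nt in 92. Among the 4-nt pairs 75.2% had GT at both sites. The stretch between the sites lay in the 5' UTR in 1712 pairs (32.6%), in coding sequence in 1674 (31.9%), in transcripts annotated as noncoding in 1218 (23.2%), across the start or end of a coding region in 542 (10.3%) and in the 3' UTR in 100. Of the coding stretches 888 (53.0%) had a length that is a multiple of 3, which keeps the reading frame, against 1091 of the 3572 other stretches (30.5%). Both exons of a pair began at the same place in 2440 pairs (46.5%), and 1492 pairs shared a site with another pair, so pairs are not independent units.

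Both sites began with GT or GC in 5035 pairs (96.0%), and 211 pairs had another dinucleotide at a site. Each site was scored by the log2 base frequencies of all annotated GT sites over 0.25, summed over 3 exon and 6 intron bases. The median score was 6.72 bits at downstream sites and 6.63 at upstream sites of the 4666 pairs with 2 GT sites, against 8.26 bits at the 204254 GT sites that belong to no pair. The downstream site had the higher score in 2404 of the 4666 pairs (51.5%). Of the GT sites in pairs 45.8% scored below 6.46 bits, the lower quartile of the other GT sites.

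**Figure D1:**
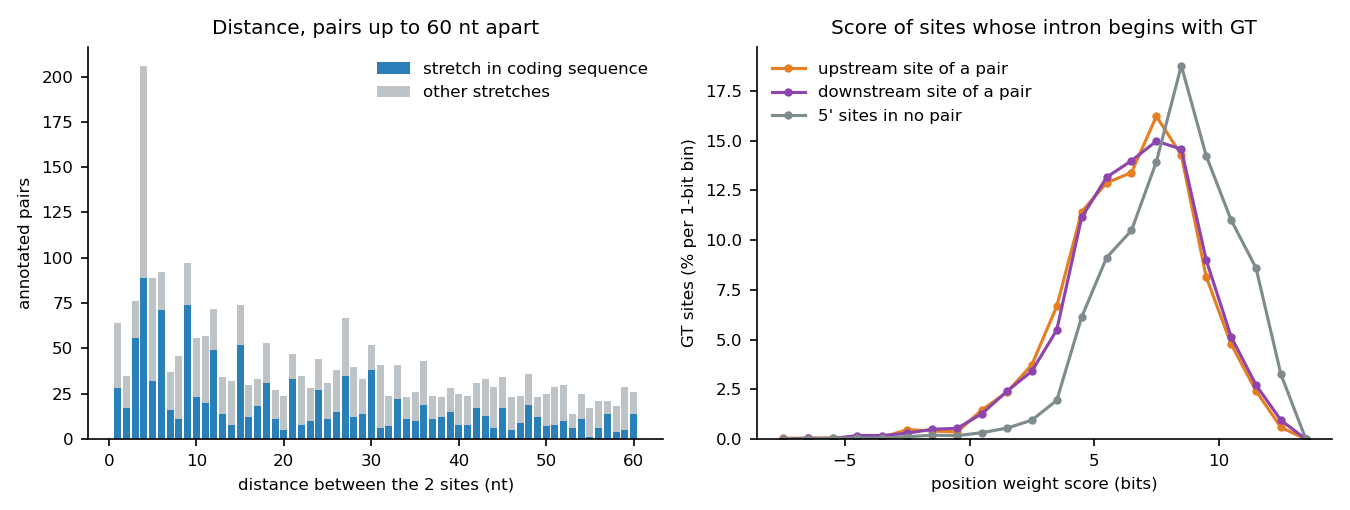
Left, number of annotated pairs (y axis) by distance between the sites in nt (x axis), for pairs up to 60 nt apart, with stretches in coding sequence in blue and all others in grey. The tallest bar is at 4 nt, also for coding stretches alone (89 pairs), which otherwise peak mostly at multiples of 3. Right, percentage of GT sites (y axis) per 1-bit bin of the position weight score (x axis) for upstream and downstream sites of pairs and for 5' sites in no pair; both kinds of paired site lie to the left of the others.

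Both forms together reached at least 1 TPM in every library for 2908 pairs (55.4%) in md and 2925 (55.8%) in ES cells. The upstream, shorter form was the larger one in most of them. WT PSI was over 50% in 1247 pairs (42.9%) in md and 1207 (41.3%) in ES cells. It was under 5% in 551 pairs and over 95% in 369 in md cells, and under 5% in 764 and over 95% in 468 in ES cells. WT PSI was higher where the downstream site scored higher. In md cells the median WT PSI was 53.6% in 302 pairs whose downstream site scored at least 3 bits more and 30.9% in 328 pairs whose upstream site did. In ES cells the medians were 57.8% in 269 pairs and 33.7% in 270. Across 1830 tested GT pairs in md cells the rank correlation of the score difference and WT PSI was weak (Spearman's rho 0.16, Pearson's r 0.17), and across 1584 in ES cells rho was 0.14 and r 0.14. These are descriptions across pairs that share the libraries and, in part, sites.

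No pair passed the test in md cells. The test was limma on PSI for events whose mean PSI lay within 5 to 95%, fitted over the 3 types together, and a call needed a Benjamini-Hochberg adjusted p under 0.05 and a difference of at least 10 points. Of the 1999 pairs tested, in 1465 genes, 0 were called, against 0% of all 8234 events. In simulated md data the test recovered 36 of 100 changes of 15 points and 76 of 100 changes of 30 points. Changes of such sizes can therefore go uncalled. At an unadjusted p under 0.05 there were 138 pairs (6.90%), 76 of them higher and 62 lower in KO, against 8.08% of all events. The median absolute difference was 2.69 points for the pairs and 2.72 for all events, with a median SD of 4.52 points among KO clones and 3.60 among WT samples for the pairs. A difference of at least 10 points was found in 158 pairs (7.90%), against 8.1% of all events, and KO and WT values did not overlap in 163 (8.15%), against 9.42% of all events. Both held in 51 pairs (2.55%), 27 higher and 24 lower in KO, against 2.81% of all events. Neither the exon 3 lines alone nor the exon 9 lines alone gave a call. In the KO clones the summed mesenchyme markers ranged from 358.1 to 995.5 TPM against 478.0 to 584.5 TPM in WT, and the leukocyte marker Cd68 from 1.57 to 10.6 against 0.875 to 2.26 TPM, with Ptprc at 0. Most of the mesenchyme sum was Col1a1, at 173.6 to 799.3 TPM in KO and 375.1 to 473.2 TPM in WT. Prrx1 was at 56.4 to 90.2 TPM in KO, above the 47.3 to 49.8 TPM of WT, without a call (limma adjusted p = 0.721). KO and WT overlapped for Col1a1, Col3a1 and Twist1. Fewer cells of a type and less RNA per cell cannot be told apart in such bulk samples, and their part in the PSI values was not tested.

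The 9 md pairs described next, from those with the lowest p among pairs with at least 10 points of difference and 5 TPM, each lay in a different gene, and in each of them the KO and WT samples did not overlap. The lowest p belonged to a pair of Ccdc61, a centriole protein, in exon 1 (5' UTR, chr7:19495482-19495702, 221 nt). Its PSI was 64.4, 67.3, 64.2 and 59.3% in KO1 to KO4, against 86.8, 79.3 and 83.7% in WT (difference -19.44 ± 2.70 points, SE; limma adjusted p = 0.241). Every KO clone lay below every WT sample, and the upstream form was at 3.13 to 6.08 TPM in KO against 1.01 to 1.72 TPM in WT, while the downstream form was at 6.44 to 8.87 against 6.34 to 6.67 TPM. The leading transcripts of these forms also differed in 10 other introns, so the values describe whole transcripts.

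Zdhhc3, a palmitoyltransferase, had a 4-nt pair in exon 2 (coding sequence, chr9:123009377-123009380). Its PSI was 76.7, 79.5, 85.1 and 85.6% in md KO clones, against 70.1, 68.6 and 68.8% in WT (difference 12.56 ± 2.65 points, adjusted p = 0.307). In ES cells it was 68.6, 64.2 and 60.3% in KO, against 53.4, 58.6 and 53.1% in WT (difference 9.33 ± 3.09 points, adjusted p = 0.286), so in both cell types every KO sample lay above every WT sample without passing the adjusted threshold. The downstream form is 1 transcript annotated for nonsense-mediated decay, and the gene rose in ES KO (log2 difference 0.44, limma adjusted p = 0.0385). In the other described md pairs that were tested in ES cells, KO and WT overlapped there. Their ES differences were -2.47 points in Ccdc61, 3.25 in Crls1, 9.80 in Tmem80 and 0.74 in RP23-115O3.9.

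Egfl7, a secreted protein of vessel walls, had a 39-nt pair in coding sequence (chr2:26447762-26447800). Its PSI was 92.7, 89.5, 84.6 and 94.7% in md KO clones, against 67.3, 68.6 and 79.6% in WT (adjusted p = 0.301). The leading transcripts of the Egfl7 pair also differed in 8 other introns. Crls1, the cardiolipin synthase of mitochondria, had an 11-nt pair in exon 1 (chr2:132673617-132673627, across the start or end of a coding region), and its leading transcripts differed in no other intron. Its PSI was 53.0, 58.5, 61.2 and 56.9% in md KO clones, against 47.3, 43.2 and 49.4% in WT (adjusted p = 0.397). Dennd5a, a regulator of Rab proteins in membrane traffic, had a 203-nt pair in exon 1 (chr7:117103588-117103790), and its leading transcripts also differed in 19 other introns. Its upstream form was listed at 0, 0, 0.188 and 0 TPM in KO1 to KO4, against 1.08, 4.33 and 2.79 TPM in WT, and PSI was at 98.8 to 100% in KO against 78.5 to 93.5% in WT (adjusted p = 0.413).

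The other 4 pairs of this rank had adjusted p-values of 0.397 to 0.437. Tmem80 (372 nt, chr7:148519631-148520002) averaged a PSI of 66.5 ± 4.50% in KO and 79.0 ± 3.45% in WT (SD, n = 4 and 3; limma over all events). Mtx1, a metaxin of the outer mitochondrial membrane (159 nt, chr3:89014029-89014187), averaged 34.5 ± 4.94% in KO and 21.2 ± 5.02% in WT. Zfp637, a zinc finger protein (116 nt of 5' UTR, chr6:117791300-117791415), averaged 71.7 ± 13.5% in KO and 98.6 ± 2.50% in WT, and its upstream intron begins with AG. RP23-115O3.9 (248 nt of 5' UTR, chr17:35258496-35258743) averaged 48.0 ± 7.15% in KO and 67.1 ± 8.19% in WT.

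**Figure D2:**
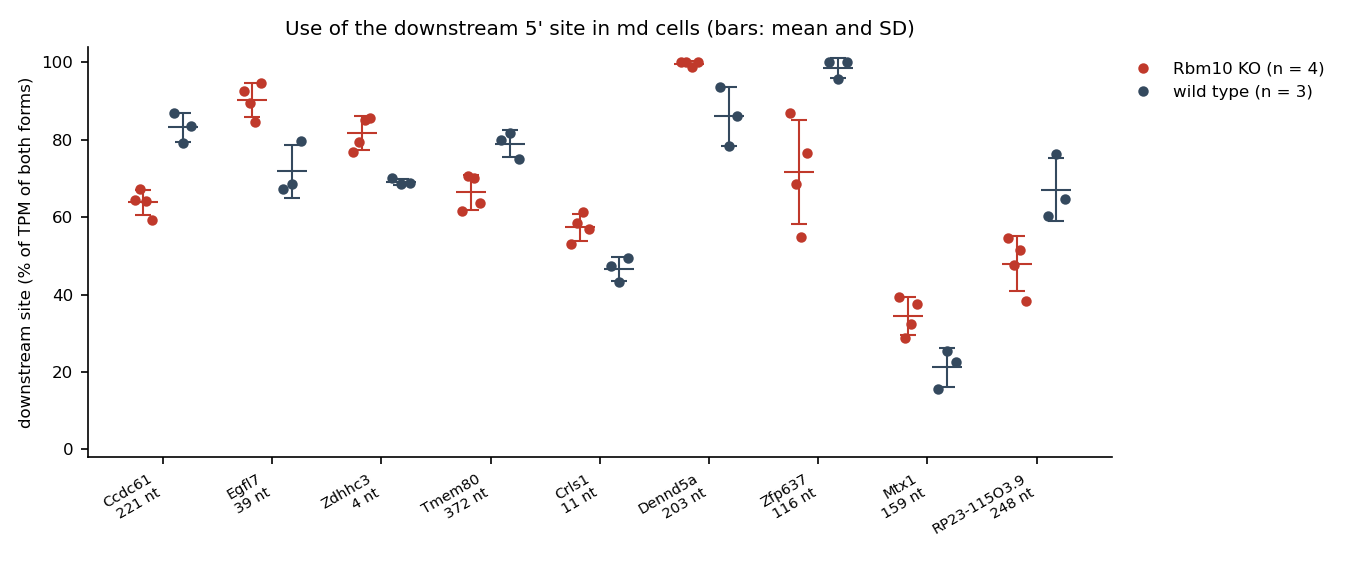
PSI in percent (y axis) of 9 of the pairs with the lowest p in md cells (x axis, with the distance between the sites in nt); points are samples, 4 Rbm10 KO lines in red and 3 WT samples in dark blue, and bars show the mean and SD. In each pair the red and blue points do not overlap, and none of the pairs passed the adjusted threshold.

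In ES cells 1 pair was called, and it fell in KO. Of the 1736 pairs tested in 1349 genes, 1 was called (0.0576%), against 0.107% of all 7487 events, among them 2 alternative 3' site pairs and 5 cassette exons. In simulated ES data the test recovered 28 of 100 changes of 15 points and 66 of 100 changes of 30 points. At an unadjusted p under 0.05 there were 196 pairs (11.3%), 117 higher and 79 lower in KO, against 13.1% of all events. A difference of at least 10 points was found in 258 pairs (14.9%), against 15.4% of all events, and the groups did not overlap in 299 (17.2%), against 19.5%. Both held in 111 pairs (6.39%), 64 higher and 47 lower, against 8.15% of all events. The median absolute difference was 3.70 points for the pairs and 3.78 for all events, and 922 of the 1736 pairs (53.1%) were higher in KO, against 51% of all events. At the gene level 1576 of 12860 genes (12.3%) passed an adjusted p of 0.05 with limma on log2(TPM + 1). Of the 6 ES markers, all at 1 TPM or more, Nanog (log2 difference -0.82, adjusted p = 0.0229) and Esrrb (-1.19, adjusted p = 0.0232) were called, both lower in KO. Sox2 (-0.42), Zfp42 (-0.55) and Dppa5a (-0.11) were lower without a call. Pou5f1 was higher without a call, at 634.1 to 682.6 TPM in KO against 552.9 to 570.7 TPM in WT (0.23, adjusted p = 0.0925). Together the 6 markers summed to 3946 to 4365 TPM in KO, against 4105 to 4992 TPM in WT. The 4 epithelial markers summed to 194.3 to 227.8 TPM in KO, against 170.3 to 190.4 TPM in WT, and Cd68 was at 8.81 to 11.5 TPM in KO, against 15.1 to 16.9 TPM in WT, with Ptprc at 0. The part of these shifts in the ES values of pairs and genes was not tested.

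The called pair was in Wnk1, a kinase that regulates ion transport, and it lies 3 nt apart in coding sequence (chr6:119906086-119906088). Its PSI was 9.32, 10.9 and 11.7% in ES KO samples, against 49.3, 42.3 and 40.9% in WT (difference -33.55 ± 2.89 points, SE; limma adjusted p = 0.0325). The downstream form was at 1.95 to 2.29 TPM in KO, against 17.4 to 19.8 TPM in WT, while the upstream form was at 16.04 to 21.8 TPM in KO and 19.3 to 26.9 TPM in WT. The annotated downstream intron begins with AA, and the leading transcripts of the forms differed in 21 other introns, the site being in exon 10 of the downstream transcript and exon 3 of the upstream one. PSI here therefore compares 2 whole transcripts of Wnk1 and not the 3 bases alone. The call was lost on leaving out any of the 6 libraries (adjusted p = 0.0683 to 0.191), with differences of -35.18 to -31.01 points, and over all alternatives its adjusted p was 0.0162 to 0.271. In md cells the PSI of the Wnk1 pair was 34.4, 33.7, 37.0 and 53.7% in KO1 to KO4, against 49.1, 46.6 and 45.7% in WT, and the groups overlapped (adjusted p = 0.747).

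Next in rank was Lig3, a DNA ligase of base excision repair and of mitochondria. Its 4-nt pair lies in exon 1 (5' UTR, chr11:82594775-82594778), with a GC site of low score upstream (0.30 bits) and a GT site of high score downstream (10.68 bits). PSI was 46.2, 44.6 and 43.9% in ES KO samples, against 29.7, 32.5 and 28.7% in WT (difference 14.58 ± 2.20 points, adjusted p = 0.0943, and 0.0455 where both forms together had to reach 5 TPM, in a range of 0.0455 to 0.314 over the alternatives). In md cells it was 41.8, 49.2, 48.5 and 55.3% in KO and 48.5, 51.0 and 50.1% in WT. Lig3 as a gene rose in ES KO, by 0.82 on the log2(TPM + 1) scale (limma adjusted p = 0.0196).

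Cenpi, a centromere protein encoded on the X chromosome, had a 69-nt pair in exon 1 (5' UTR, chrX:130842768-130842836), and its leading transcripts also differed in 19 other introns. PSI was 36.9, 43.9 and 43.8% in ES KO, against 69.8, 65.8 and 56.7% in WT (difference -22.59 ± 4.11 points, adjusted p = 0.127). Its windows held 79 RBM10 and 5 IgG crosslinks in md cells, where PSI was 23.1 to 27.4% in KO and 14.3 to 45.9% in WT. Clcn3, an endosomal chloride transporter, had a 175-nt pair (chr8:63393375-63393549) whose downstream form is annotated as noncoding. The leading transcripts of the Clcn3 pair also differed in 10 other introns in ES cells. PSI was 62.2, 61.2 and 54.2% in ES KO, against 76.4, 82.8 and 79.2% in WT (adjusted p = 0.103). Rrp7a, a ribosomal RNA processing protein, had a 378-nt pair (chr15:82949944-82950321) whose downstream form is annotated for nonsense-mediated decay. PSI was 35.6, 37.3 and 39.8% in ES KO, against 48.7, 50.9 and 50.6% in WT (adjusted p = 0.122).

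Fam160a2, a subunit of a complex that links endosomes to dynein, had a 42-nt pair in coding sequence (chr7:112533460-112533501). PSI was 66.4, 79.1 and 75.8% in ES KO, against 45.6, 46.2 and 56.2% in WT (difference 24.40 ± 4.57 points, adjusted p = 0.130). In md cells it was 53.5, 56.5, 58.5 and 57.5% in KO, against 60.02, 62.4 and 64.8% in WT (difference -5.90 ± 2.07 points, adjusted p = 0.509). KO lay above WT in every ES sample and below it in every md sample, and the difference between the cell types was not tested.

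The other 4 ES pairs of this rank carry predicted or RIKEN symbols, with adjusted p-values of 0.114 to 0.140. Gm6483 (167 nt) averaged a PSI of 64.2 ± 1.65% in KO and 50.4 ± 1.98% in WT, and Gm11837 (4 nt) averaged 61.9 ± 5.34% in KO and 43.6 ± 3.70% in WT (SD, n = 3 each; limma over all events). 1810014F10Rik (76 nt) averaged 7.79 ± 1.26% in KO and 18.5 ± 0.564% in WT, and 1700020I14Rik (169 nt) averaged 81.3 ± 4.72% in KO and 97.3 ± 2.38% in WT.

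**Figure D3:**
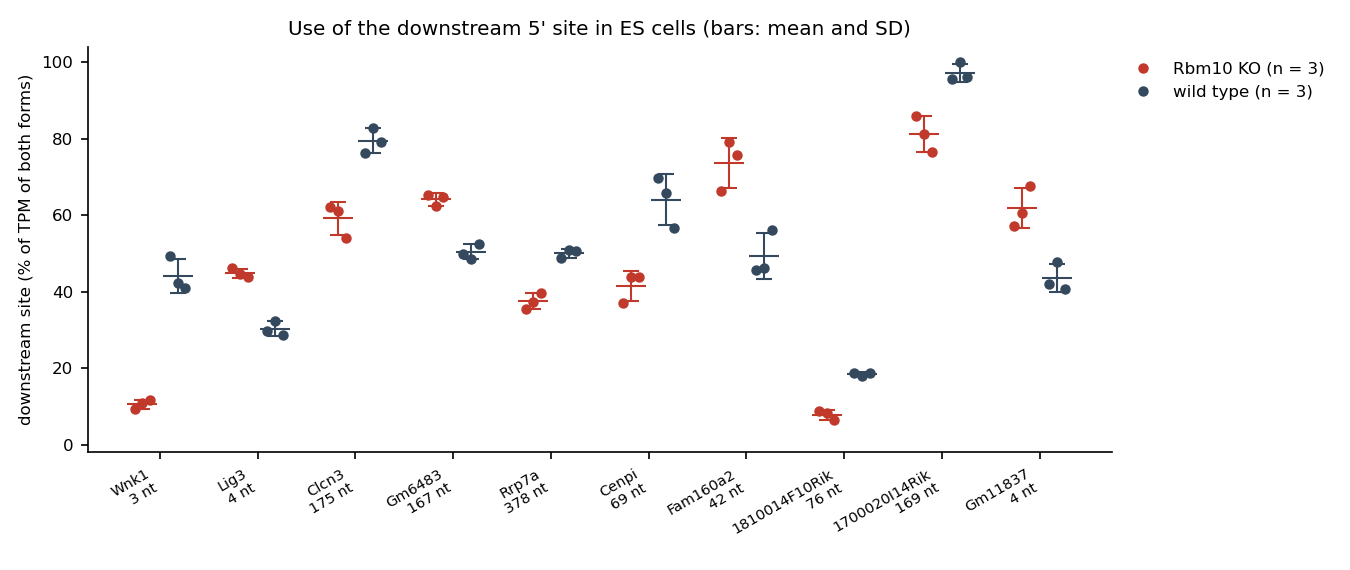
PSI in percent (y axis) of the called Wnk1 pair and the 9 pairs next in p in ES cells (x axis, with the distance between the sites in nt); points are samples, 3 Rbm10 KO in red and 3 WT in dark blue, and bars show the mean and SD. The Wnk1 points lie between 9.32 and 11.7% in KO and between 40.9 and 49.3% in WT, and in each pair the groups do not overlap.

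The KO against WT differences of the 2 cell types were nearly uncorrelated over the pairs. In the 1318 pairs tested in both, Pearson's r of the differences was 0.02 and Spearman's rho 0.01, as a description across pairs, and 661 pairs (50.2%) had the same sign. At least 10 points in both cell types were reached by 20 pairs, 7 of them in the same direction. The 5 pairs with the largest difference of the same sign in both were in Ccdc61, Glrx2, Tm9sf1, Inpp5k and Trim24, and this shared sign is how they were chosen. Trim24, a coregulator of nuclear receptors, has a 102-nt pair in coding sequence (chr6:37895688-37895789). Its PSI was 34.1, 37.3, 51.2 and 37.3% in md KO, against 29.8, 30.3 and 26.7% in md WT, and 35.4, 56.3 and 54.3% in ES KO, against 25.1, 28.4 and 26.3% in ES WT. KO lay above WT throughout, with adjusted p-values of 0.538 in md and 0.216 in ES cells.

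Glrx2, a mitochondrial glutaredoxin, had a 43-nt pair (chr1:145588842-145588884) between 2 noncoding transcripts that differ in no other intron. PSI was 55.0, 30.1, 50.4 and 35.4% in md KO and 77.1, 50.6 and 69.7% in md WT, and 3.92, 0 and 5.27% in ES KO, against 37.3, 38.0 and 15.8% in ES WT. The groups overlapped in md and not in ES cells (adjusted p = 0.509 and 0.175). An 11-nt pair of Ccdc61 averaged 28.6 ± 17.0% in md KO and 58.2 ± 13.1% in md WT, and shares its upstream site with the 221-nt pair described above. In ES cells the 11-nt pair was at 0, 0 and 23.2% in KO, against 15.3, 17.9 and 80.6% in WT, and the groups overlapped. Its 2 forms together averaged only 1.23 TPM in ES KO and 1.69 TPM in ES WT. Inpp5k (12 nt) averaged 31.2 ± 3.63% in ES KO and 18.6 ± 6.70% in ES WT, and Tm9sf1 (50 nt) averaged 65.4 ± 24.0% in ES KO and 89.5 ± 1.80% in ES WT (SD, n = 3 each; limma over all events, adjusted p = 0.281 for Inpp5k and 0.442 for Tm9sf1). In md cells KO and WT overlapped in both of these pairs. There Inpp5k averaged 19.6 ± 12.7% in KO and 7.49 ± 3.72% in WT (limma adjusted p = 0.713). Tm9sf1 averaged 37.0 ± 25.1% in md KO and 51.7 ± 17.9% in md WT (limma adjusted p = 0.828).

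None of the textbook pairs that could be tested passed. Of the genes listed for this purpose 8 had 13 annotated pairs. In Wt1, a transcription factor of the gonad and kidney, the downstream site adds 9 nt (chr2:105010167-105010175) that encode the KTS residues between the third and the fourth zinc fingers. Wt1 was measured in ES cells, where the +KTS PSI was 26.3, 20.6 and 26.1% in KO, against 33.1, 24.7 and 19.9% in WT (difference -1.53 ± 3.98 points, adjusted p = 0.904). The level of the gene rose in ES KO, by 1.99 on the log2(TPM + 1) scale (adjusted p = 0.0247). The upstream form was at 5.91 to 10.7 TPM in KO against 0.732 to 2.91 TPM in WT, and the +KTS form at 2.11 to 2.78 against 0.266 to 0.720 TPM.

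In the fibroblast growth factor receptors Fgfr1 and Fgfr2 the downstream site adds 6 nt for a valine and a threonine (the VT variant) just inside the cell membrane, with an intron that begins with GA. In Fgfr1 (chr8:26677380-26677385) PSI was 87.7, 89.4, 89.2 and 86.1% in md KO, against 81.7, 88.5 and 86.4% in WT (difference 2.50 ± 2.20 points, adjusted p = 0.801), although the downstream form was between 2.06 and 53.7 TPM among the KO clones. In ES cells it was 94.7 to 98.8% in KO and 96.3 to 98.8% in WT. In Fgfr2 (chr7:137339686-137339691) PSI was 36.3, 31.6, 38.7 and 38.8% in md KO and 36.5, 40.0 and 36.6% in md WT, and 62.5 to 77.2% in ES KO and 62.6 to 74.4% in ES WT. Another 6-nt pair of Fgfr1 (chr8:26668287-26668292) was at 37.9, 53.7, 54.5 and 56.5% in md KO, against 64.96, 55.8 and 62.6% in WT (adjusted p = 0.655).

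Srsf5, an SR protein, has 3 overlapping pairs from 3 sites in the 5' UTR, of which the 4-nt pair (chr12:82046656-82046659) had the smallest spread. Its PSI was 68.8, 69.1, 69.5 and 65.9% in md KO, against 69.99, 69.7 and 68.4% in md WT (difference -1.04 ± 1.74 points, adjusted p = 0.910). In ES cells it was 72.3, 70.9 and 75.2% in KO and 72.9, 74.0 and 73.0% in WT. The third site, 126 nt further on, was at 18.7 to 26.1% in 3 md KO clones and 16.7% in KO4, and at 21.2 to 22.7% in md WT. In ES cells it was at 43.4, 32.7 and 33.98% in KO, against 49.6, 49.7 and 38.3% in WT (difference -9.20 ± 4.53 points, adjusted p = 0.457), and the groups overlapped. The 130-nt pair differed by -9.07 ± 4.51 points in ES cells (adjusted p = 0.460). Bcl2l1, an inhibitor of apoptosis known for its long and short forms, was measured at a 155-nt pair in the 5' UTR (chr2:152656122-152656276), where PSI was 15.2, 14.2, 12.5 and 16.3% in md KO, against 8.39, 11.7 and 9.71% in WT (difference 4.62 ± 1.83 points, adjusted p = 0.573). Lying outside the coding sequence, this pair does not measure the choice between the long and short forms. In Srsf1 and Srsf6 the downstream site took over 98% in every library, and the pairs were not tested.

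Genes that act in the choice of 5' splice sites were examined as a list of 26, including U1 proteins (Snrnp70, Snrpa, Snrpc), LUC7-like proteins, Tia1 and Tial1, SR and hnRNP proteins. In md cells 0 of the 26 were called with limma, against 0.0165% of 12090 genes, and 1 had an unadjusted p under 0.05, against 6.86% of all genes; 4 of 26 were above 0 in KO, and the median log2 difference was -0.13, against 0.01 for all genes. In ES cells 2 of 26 rose and 0 fell, against 12.3% of all genes called, and 12 had an unadjusted p under 0.05, against 34.1% of all genes; 22 of 26 were above 0, with a median of 0.21 against 0.03 for all genes. Ddx23, a helicase that helps to transfer the 5' site from U1 to U6 RNA, was at 57.0, 59.2 and 77.4 TPM in ES KO, against 42.5, 43.9 and 47.2 TPM in WT (log2 difference 0.51 ± 0.13, adjusted p = 0.0480). Rbm17, a spliceosomal protein, was at 113.5, 109.6 and 128.0 TPM in KO, against 87.5, 90.8 and 82.6 TPM in WT (0.42 ± 0.09, adjusted p = 0.0357). The shifts of Nanog, Esrrb and the other markers given above are in the same ES libraries, and their part in the result was not tested. The number called was 9 without ES KO1, 3 without ES WT3 and 0 without any one of the other 4 libraries.

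RBM10 crosslinks near the pairs were denser in introns than those of IgG. The stretch between the sites held 0.260, 0.245, 0.333 and 0.302% of the crosslinks of the 4 RBM10 libraries, against 0.168, 0.158, 0.188 and 0.133% of the 4 IgG libraries (1.76-fold of the mean, exact permutation test over 70 splits, 2-sided p = 0.0286, adjusted over 5 comparisons 0.0357). The 100 nt of intron after the downstream site held 0.219, 0.187, 0.303 and 0.273% in RBM10 and 0.0930, 0.0825, 0.114 and 0.0658% in IgG libraries (2.77-fold, exact p = 0.0286). The 100 nt before the shared 3' site held 0.461, 0.380, 0.742 and 0.621% in RBM10 and 0.0937, 0.0647, 0.0757 and 0.0658% in IgG libraries (7.35-fold, exact p = 0.0286). In each of these regions every RBM10 library lay above every IgG library.

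The 50 nt of exon before the upstream site held 0.0529, 0.0554, 0.0477 and 0.0474% of RBM10 and 0.0598, 0.0619, 0.0534 and 0.0506% of IgG crosslinks, and the groups overlapped (0.901-fold, exact permutation p = 0.143). Per kilobase and 1000000 crosslinks, the means were 12.9 in RBM10 and 1.75 in IgG before the 3' site, 5.44 and 1.97 after the downstream site, 4.35 and 2.47 in the stretch, and 2.20 and 2.44 in the exon. 0.0286 is the smallest p that 4 against 4 libraries allow, and with each RBM10 library paired to the control of the same replicate the exact sign-flip p was 0.125, the smallest that 4 pairs allow, with the same direction in 4 of 4 pairs.

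On average, sites of pairs held about as many RBM10 crosslinks as other 5' sites of the same genes, and more IgG crosslinks than those. Within a library, crosslinks per site (50 nt of exon and 100 nt of intron) at the 9012 sites of pairs over those at the other sites were 1.02, 1.03, 0.964 and 1.04 in RBM10 and 1.26, 1.28, 1.59 and 1.19 in IgG libraries. Every RBM10 library lay below every IgG library (difference of the means -0.319, exact permutation p = 0.0286, and 0.125 by sign flips of the pairs). Leaving out RBM10 library 1 or library 3 gave an exact permutation p = 0.0571 with differences of -0.321 and -0.303. Per site, the downstream sites of pairs held 1.10, 1.01, 1.25 and 1.15 times the crosslinks of the upstream sites in RBM10 libraries and 0.829, 0.794, 0.834 and 0.791 times in IgG libraries, so the groups lay on opposite sides of 1; this ratio was chosen after its values were seen and has no test.

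**Figure D4:**
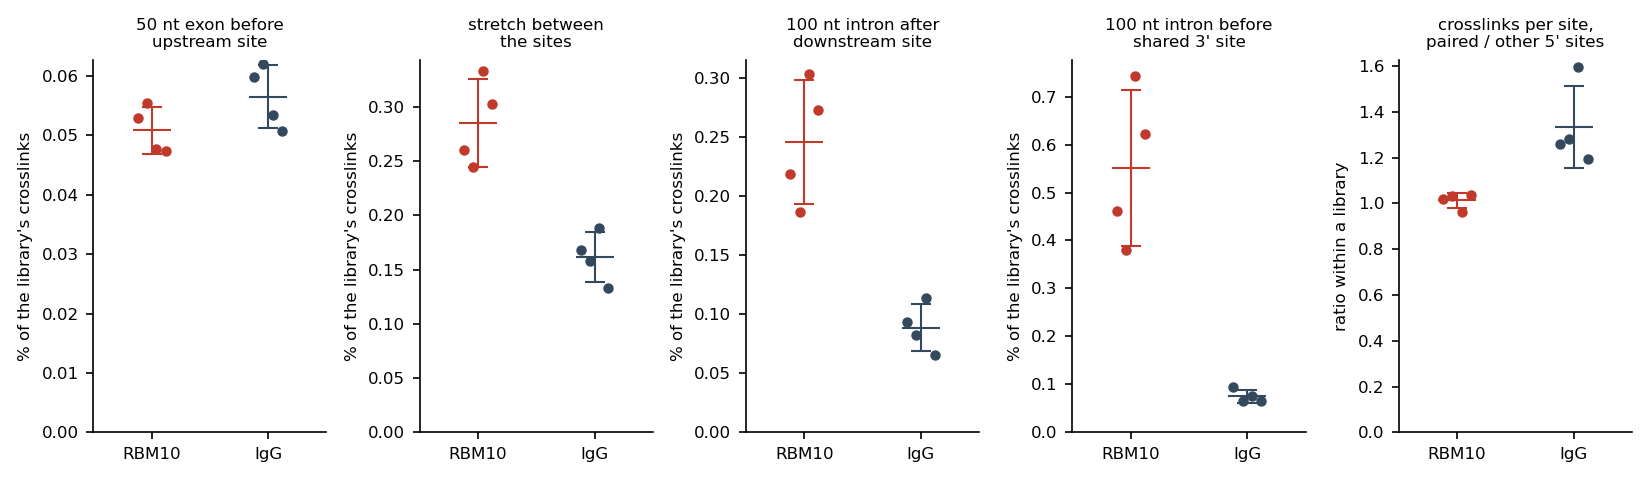
Percentage of a library's crosslinks (y axis) in 4 regions at the annotated pairs, and, at the right, the within-library ratio of crosslinks per site at paired over other 5' sites; points are the 4 RBM10 libraries (red) and the 4 IgG libraries (dark blue), and bars show the mean and SD. The groups do not overlap in the stretch, the 2 intron regions and the ratio, and they overlap in the exon.

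Crosslinked positions, each counted once, showed where RBM10 contacts lie. At sites of pairs at least 100 nt apart, RBM10 positions were fewest in the last 20 nt of the exon and more frequent in the intron. At downstream sites the mean was 26.7 per 1000 sites and 1000000 positions in the last 10 nt of the exon and 81.7 at 20 to 30 nt into the intron, where the 4 RBM10 libraries ranged from 57.1 to 111.0 and the IgG libraries from 9.02 to 22.9. At upstream sites the highest mean was 71.4, at 40 to 50 nt (57.5 to 83.9 in RBM10, 17.4 to 104.8 in IgG libraries, which overlapped). At 5' sites in no pair of the same genes it was 90.5, at 30 to 40 nt (65.2 to 111.2 in RBM10, 14.5 to 21.8 in IgG). The exon side of downstream sites, which is intron for the shorter form, held 50.1 in RBM10 and 31.2 in IgG libraries at 40 to 50 nt before the site, against 31.7 and 46.7 at sites in no pair. IgG libraries 3 and 4 held only 63510 and 58689 crosslinked positions in all. At sites of pairs their bins, and so the IgG ranges, rest on few positions.

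**Figure D5:**
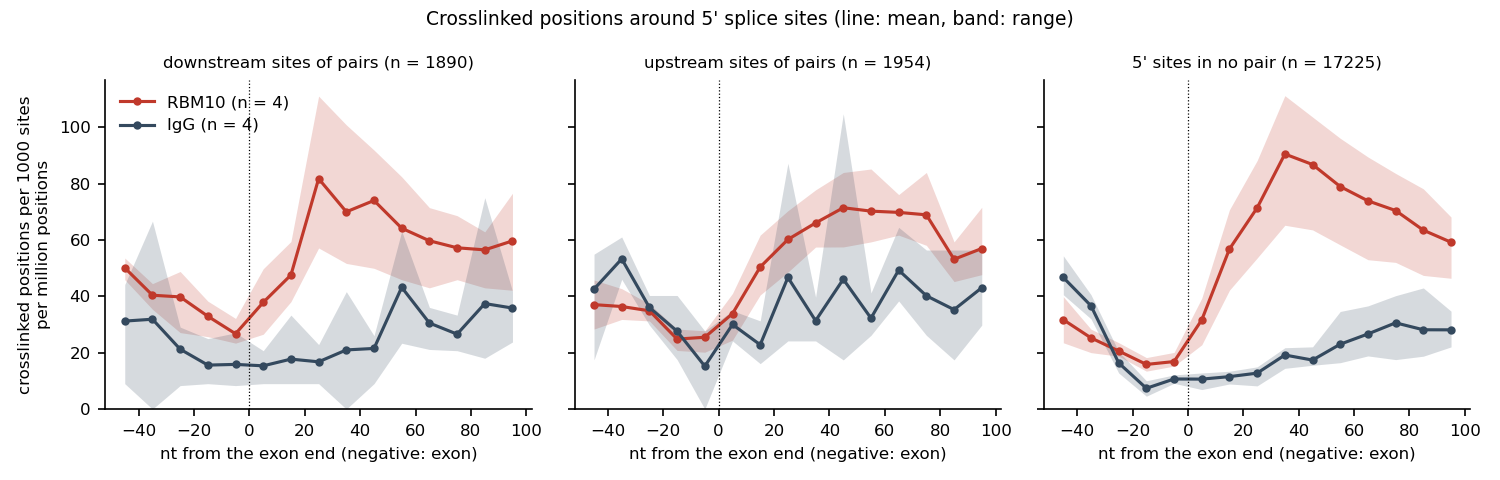
Crosslinked positions per 1000 sites and 1000000 positions (y axis) in 10-nt bins by distance from the exon end in nt (x axis, exon negative, intron positive), at downstream sites of pairs, upstream sites of pairs and 5' sites in no pair; lines are means of 4 libraries and bands their range, RBM10 in red and IgG in dark blue. RBM10 lies above IgG from about 20 to 50 nt into the intron at downstream sites and at sites in no pair, while the bands overlap at upstream sites at 20 to 30 and 40 to 50 nt. At sites of pairs the bins of IgG libraries 3 and 4 rest on few positions.

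Single sites could be tested where they held enough crosslinks. Windows of 50 nt of exon and 100 nt of intron at all annotated 5' sites were tested with edgeR's quasi-likelihood test. An RBM10 crosslink fell in the windows of 3275 pairs (62.4%) and an IgG crosslink in those of 2330 (44.4%), with a median of 2 RBM10 crosslinks per pair, and 824 pairs had one in all 4 RBM10 libraries. Of the 9012 windows of pairs 37 passed the filter on low counts, in 24 genes, and 27 were called, 20 higher and 7 lower in RBM10, against 66.4% of all 538 windows tested, of which 46.1% were higher and 20.3% lower. A window can pass that filter through the libraries where it is high, so these counts are a description. With a minimum of 10 crosslinks over all libraries in its place, 1380 windows of pairs were tested and 221 called (208 higher and 13 lower). Over all windows 26351 were then tested and 4809 called (4658 higher and 151 lower). The CPM values of the groups did not overlap in 28 of the 37, against 63.6% of all windows. The scaling sets the split. With TMM factors the median log2 difference of all windows was 1.26, and without them 2.86. Without them 27 windows of pairs were higher and 2 lower, against 388 higher and 38 lower of all 538. DESeq2 called 28, all of them higher, against 391 higher and 1 lower of all 538. Leaving out IgG library 1 gave 16 calls of 55 windows of pairs, against 395 of all 989. Leaving out IgG library 2 gave 13 of 40, against 196 of all 708. Crosslinks are counted as deposited, and copies of a molecule may be among them.

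Windows higher in RBM10 lay in 16 genes, and the following counts are for RBM10 libraries 1 to 4 against IgG libraries 1 to 4. Imp4, a ribosomal RNA processing protein, had 18, 41, 58 and 11 crosslinks at its downstream site, against 1, 0, 0 and 0 (chr1:34499900-34500049, edgeR adjusted p = 0.000362, and 6.55e-07 to 0.0517 over the alternatives, the highest without IgG library 2). Ncaph2, a condensin subunit, had 28, 60, 69 and 15, against 1, 1, 0 and 0, in windows of a 5-nt pair that share nearly all bases (chr15:89200685-89200834, adjusted p = 0.000440, and 5.07e-07 to 0.0291 over the alternatives). Prkcd, a protein kinase C, had 32, 76, 96 and 25 at its downstream site, against 2, 2, 0 and 0 (chr14:31415745-31415894, adjusted p = 0.00168, and 2.92e-07 to 0.0330 over the alternatives). Htra2, a mitochondrial protease, had 36, 95, 112 and 22 at its upstream site, against 2, 1, 0 and 1 (chr6:83002895-83003044, adjusted p = 0.00169, and 4.43e-07 to 0.0501 over the alternatives, the highest without IgG library 2).

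Luc7l3, a U1-associated protein, had 40, 108, 89 and 49 crosslinks at its upstream site, against 2, 8, 1 and 0 (chr11:94153621-94153770, adjusted p = 0.0150, and 5.74e-07 to 0.138 over the alternatives). The Luc7l3 call was lost without IgG library 1, 3 or 4. Its pair lies in the 3' UTR of a transcript annotated for decay, and the downstream form was listed at 0 in every md library. Srsf1, an SR protein, had 21, 64, 73 and 29 at its downstream site, against 1, 8, 0 and 0 (chr11:87862668-87862817, adjusted p = 0.0301, and 1.01e-05 to 0.239 over the alternatives). The Srsf1 call was lost without IgG library 1, 3 or 4 or RBM10 library 4. Eif4a2, a helicase of translation initiation, had 49, 90, 270 and 38, against 6, 7, 0 and 0 (chr16:23107904-23108053, adjusted p = 0.0131, and 7.01e-07 to 0.133 over the alternatives), a call lost on leaving out any one IgG library. The cold-shock protein Rbm3 and the paraspeckle protein Rbm14 were also among them, as were Tmem55b, Vmp1, Npepps, Gga3, Wisp1, Hjurp and 1 site of Gas5. Of the called windows, higher or lower, those of Ncaph2 and Prkcd were called under every alternative in which they passed the filter, and each of the others lost the call under at least 1.

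Windows lower in RBM10 lay in 5 genes, and 4 of these 7 windows overlapped an annotated snoRNA, against 0 of the 20 higher ones. The same count was not made over all windows tested, so it cannot be called particular to the pairs. The 2 Rpl7a windows among these 4 share nearly all bases. Their mean CPM was 15.1 in RBM10, against 15.1 and 15.2 in IgG. Gas5, a noncoding host gene of snoRNAs, had 93, 305, 65 and 20 crosslinks in a window over SNORD79, against 172, 451, 23 and 18 in IgG (chr1:162967397-162967546, log2 difference -2.84, adjusted p = 0.0161, and 6.46e-13 to 0.341 over the alternatives). This call was lost with DESeq2, with the minimum of 10 crosslinks, and without IgG library 1 or 2 or RBM10 library 1 or 4. At another Gas5 site, just upstream, the counts were 52, 117, 270 and 51 in RBM10, against 9, 11, 0 and 0 in IgG (chr1:162967246-162967395, adjusted p = 0.0356, and 1.29e-06 to 0.257 over the alternatives), a call lost on leaving out any one IgG library or RBM10 library 1 or 4. The lower windows of Rpl13a, Rpl7a and 1110038B12Rik were not called without TMM factors, where 2 of the 7 were, 1 each in Gas5 and Igtp. With the replicates as a block 15 of the 20 higher and 5 of the 7 lower windows were called. Those not called were the windows of Rbm14 (adjusted p = 0.106), Wisp1 (0.139) and Hjurp (0.186), the upstream window of Rbm3 (0.0782), the downstream window of Gga3 (0.0589) and the 2 lower windows of Rpl7a (0.0709 and 0.0729).

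The pairs with most RBM10 crosslinks were used at one site only or could not be tested for PSI, with 1 exception. By count these were 1110038B12Rik (934 RBM10 and 420 IgG crosslinks in the windows of the pair), Gas5 (602 and 42), Eif4a2 (451 and 15), Nop56 (391 and 95) and Luc7l3 (287 and 11). In md cells PSI was 1.77 to 4.78% in KO and 3.74 to 3.84% in WT for Eif4a2, and 3.36 to 5.11% in KO and 4.38 to 6.44% in WT for Nop56. 1110038B12Rik was tested, with 66.7, 66.1, 57.9 and 37.7% in KO, against 58.2, 58.4 and 40.8% in WT (adjusted p = 0.913). Its 2 forms together averaged 15.6 TPM in md KO and 17.5 TPM in md WT, of 305.6 and 362.2 TPM for the gene. PSI there covers a small part of the gene's RNA, while the crosslinks may come from all of it.

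Pairs with more RBM10 crosslinks had no larger PSI differences in md cells. Of the pairs with a called higher window 8 were tested for PSI in md cells, 3 of them higher in KO. Their differences ran from -1.93 points in Htra2 to 21.43 in Tmem55b (26.1 ± 18.4% in KO and 4.64 ± 2.93% in WT, SD, n = 4 and 3; limma adjusted p = 0.623). Prkcd averaged 25.4 ± 4.29% in KO and 22.7 ± 1.67% in WT, and Ncaph2 45.1 ± 3.75% in KO and 46.7 ± 3.14% in WT. The median absolute md difference was 2.30 points in 537 tested pairs with at least 10 RBM10 crosslinks in their windows, 2.84 in 1230 with 1 to 9, and 3.12 in 232 with none. Unadjusted p-values under 0.05 were found in 28 (5.21%), 92 (7.48%) and 18 (7.76%) of them. The median TPM of both forms was 19.5, 10.9 and 7.24 in the same order, so the groups differ in expression, and its part was not tested.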

How the data were processed

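Groups and replicate numbers came from the sample titles. The iCLIP values are crosslink counts per genomic position and strand as deposited, from reads mapped to mm9 per the labels' design text. The RNA-seq values are deposited TPM of each transcript, separately for md and ES cells. The submitters' processing notes list the builds mm10 and mm9 with no role. The sources used here do not give the aligner, the quantifier or the strand setting. Of 100249 listed transcripts 84877 (84.7%) were joined to GENCODE vM1. PSI from TPM depends on how reads were divided among whole transcripts: the leading transcripts of a pair differed in no other intron in 592 of 1999 tested md pairs (29.6%) and 522 of 1736 ES pairs (30.1%). Where nothing is said of other introns, the leading transcripts of a named pair may differ in them too. RNA-seq depth is unknown, so no counting interval can be given. Values of overlapping, antisense or near-identical genes are uncertain.

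PSI was tested with limma 3.58.1 (R 4.3.3) per cell type on all splice events whose 2 forms summed to 1 TPM or more throughout and whose mean PSI was 5 to 95%; genes with at least 1 TPM in 3 libraries on log2(TPM + 1) with limma's trend. That scale understates changes of low genes. Windows were tested with edgeR 4.0.16 (TMM, filterByExpr), with DESeq2 1.42.0 as an alternative. All tests were 2-sided. The PSI, gene and window tests were also run on simulated data, and the exact tests were not. For windows the simulated fit used the minimum of 10 crosslinks in place of filterByExpr. Named pairs were the called ones, filled to 10 per cell type by lowest p among differences of at least 10 points and 5 TPM, 1 per gene, with the 5 largest of the same sign in both cell types, the 5 with most RBM10 crosslinks, and pairs of Bcl2l1, Wt1, Fgfr, Srsf and related genes. An md pair that this rule names is not reported here. Members and lists were chosen with earlier results of these data known. The iCLIP replicate numbers pair, since each replicate had its own control precipitation per the design text (correlations of deviations 0.05 to 0.38). Tables were joined in pandas 2.3.3 under Python 3.11.15, exact tests were run in scipy 1.17.1 with numpy 2.4.6, and plots were drawn in matplotlib 3.10.9.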

Additional observations from a re-analysis of the deposited data

Results flagged for a closer look

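In md KO clones, a pair each of Wnk1 and Fgfr1 had 1 clone far from the other 3. Wnk1 was at 53.7% PSI in KO4, against 33.7 to 37.0% in the others. Fgfr1 (6-nt pair, chr8:26668287-26668292) was at 37.9% in KO1, against 53.7 to 56.5% in the others. The Dennd5a pair met the same criterion only because 3 clones were at the ceiling of 100%, where any value below 100% does so; KO3 was at 98.8%. These are 3 of 40 sets of 4 values examined, and chance alone gives about 1 such set in 20.

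The pair of Fam160a2 had KO values on opposite sides of WT in the 2 cell types. Its PSI difference was -5.90 points in md cells, with every KO clone below every WT sample, and 24.40 points in ES cells, with every KO sample above every WT sample. The difference between the cell types was not tested, since the tables were fitted separately.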

How the results depend on the processing

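No pair was called in md cells under any alternative run, and the 4 iCLIP share and exon comparisons kept their direction in all of theirs. In ES cells the count of called pairs was 1 as reported, 2 with at least 5 TPM, with limma's trend, on the logit scale or with no minimum TPM, 4 on the log2 ratio scale, 0 with no filter on mean PSI, 0 with the replicate block, 0 among pairs with GT or GC at both sites (chosen after seeing the data), and 0 to 0 on leaving out 1 library at a time. The GT or GC setting leaves out the Wnk1 pair before the fit, since its downstream intron begins with AA, so that call could not be kept there. The cause of the other changes was not tested. The md and ES replicate numbers share only a number (correlations of deviations from -0.12 to 0.07), so the block is given here alone. Under sign flips of the iCLIP pairs, which cannot go below 0.125, the differences were unchanged at 0.123 for the stretch, 0.157 for the intron after the downstream site, 0.476 for the intron before the 3' site and -0.319 for the paired to other ratio. That ratio ranged from -0.365 to -0.232 on leaving out 1 library. Listed 5' site recognition genes called in ES cells were 2 as reported, 1 on log2(TPM + 0.1), 0 with no minimum, 0 with the replicate block, and 0 to 9 on leaving out 1 library (9 without ES KO1). Called windows of pairs were 27 as reported, 9 with 50 nt of intron, 221 (of 1380 tested) with at least 10 crosslinks over all libraries, 16 with each position counted once, and 13 to 28 on leaving out 1 library (13 without IgG library 2 and 16 without IgG library 1). The first 4 of these were 27 of 37, 9 of 12, 221 of 1380 and 16 of 18 windows of pairs tested. Over all windows the calls were 357 of 538, 141 of 202, 4809 of 26351 and 209 of 276, in the same order.

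Uncalled PSI differences changed sign as follows, in points. In md cells with the exon 3 clones only they were 3.61 and 3.04 for the 130-nt and 126-nt pairs of Srsf5, 1.73 for 1700020I14Rik and 2.85 for Clcn3. With the exon 9 clones only they were -4.68 for 1110038B12Rik, 1.05 for Fgfr2 and 2.04 for Lig3. With the replicate block they were 0.84 and 0.90 for the 2 Srsf5 pairs and 1.87 for Clcn3. On leaving out 1 md library they ranged from -4.58 to 0.84 and from -2.24 to 0.90 for those Srsf5 pairs, from -1.19 to 11.13 for 1110038B12Rik, from -2.08 to 0.43 for 1700020I14Rik, from -4.57 to 2.80 for Clcn3, from -2.14 to 0.24 for Fgfr2 and from -3.37 to 1.15 for Lig3. On leaving out 1 ES library they ranged from -1.70 to 0.46 for the 4-nt Srsf5 pair, from -1.31 to 16.55 for Tmem80, from -4.54 to 2.10 for Wt1, from -0.38 to 3.70 for Bcl2l1, from -6.37 to 1.71 for the 221-nt Ccdc61 pair and from -6.83 to 0.56 for Fgfr2. The 2 Rpl7a windows were at 0.76 and 0.77 with DESeq2. The IgG libraries 3 and 4, with 103017 and 157986 crosslinks, limit what single windows can show.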

Other observations

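Wild-type md and ES cells differed widely in the site they used at some pairs. The values come from separately made tables and no test was made across them, and the pairs named here were chosen after their values were seen. In the 2511 pairs measured in both cell types WT PSI was broadly alike (Pearson's r 0.86, Spearman's rho 0.86 across pairs), with a median absolute difference of 7.34 points. The WT samples did not overlap and differed by at least 20 points in 555 of these 2511 pairs, 303 of them higher in md cells. The same count was not made over all splice events, so it cannot be called particular to these pairs.

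The 5 largest of these lay in Shisa5, Mtap4, Fam54b, Ctnnb1 and Shroom3, all with the downstream site in md and the upstream site in ES cells. Ctnnb1, which encodes beta-catenin, has a 3-nt pair (chr9:120865088-120865090) at which WT PSI was 99.4, 98.9 and 98.8% in md cells and 9.93, 10.2 and 9.98% in ES cells. The forms together averaged 13.95 TPM in md WT and 238.1 TPM in ES WT, and their leading transcripts differed in 11 other introns. Mtap4, a microtubule-associated protein, has a 3-nt pair (chr9:109982398-109982400) whose leading transcripts differ in no other intron. Its WT PSI was 100, 100 and 96.0% in md cells and 1.33, 2.43 and 1.45% in ES cells. In Rbm10 KO samples it was 90.7 to 100% in md and 1.88 to 10.8% in ES cells.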
